A study of Arabidopsis thaliana with 9 samples.

Results

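*Pieris brassicae*, the large white butterfly, lays batches of eggs on leaves of *Arabidopsis thaliana*, and a crude egg extract (EE) spotted on a leaf is used in place of the eggs. The data described here are the 6 RNA sequencing libraries that compare EE-treated leaves with untreated leaves, 3 of each, out of the 9 libraries of the series; the members were chosen by their labels alone. The other 3 libraries came from leaves that had carried eggs for 5 days. They entered the model for the estimate of the spread and for a comparison with EE given after the main results. All plants were of the Col-0 accession. In the EE group, 2 leaves on each of 4 plants received 2 drops of 2 µL on the lower side and were harvested after 5 days. The control group was untreated: no mock solution was spotted, so the extract and the spotting itself cannot be told apart. How leaves were pooled into libraries is not given in the sources used here, and the 3 libraries of a group came from separate experiments.

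The table held 17605 genes, each with a log2 CPM value, a read count scaled to the size of its library, in every library. A difference of 1 on this scale is a change of 2-fold. A gene is called raised or lowered when limma's moderated test, fitted over all 9 libraries, gave a Benjamini-Hochberg adjusted p under 0.05 over all genes. Libraries held 37348236 to 47057692 reads over these genes, and after the authors' scaling 1 CPM stood for 29.4 to 51.4 reads. Correlations between libraries of a group ran from 0.83 to 0.91 in the controls and from 0.92 to 0.97 after EE. The library numbered 2 deviated from the other 2 of its group in the same way in the controls and after EE. The summed level of 4 mesophyll markers ran from 7224 to 45628 CPM over the controls, with control 3 the highest, and from 7208 to 16517 CPM after EE. Marker sums that did not overlap between the groups were those of epidermis (216 to 355 CPM in the controls, 188 to 198 after EE), guard cells (48.3 to 62.5 and 41.3 to 46.7) and the single bundle sheath marker *SULTR2;2* (9.20 to 18.7 and 25.9 to 27.2), each with an exact two-sided permutation p = 0.1, the smallest that 3 against 3 allows. The mesophyll, guard cell and phloem markers of a leaf were all measured, while none of the root, meristem, flower and trichome markers was in the table.

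Eggs are perceived by the plant as a danger signal, and leaves beneath them accumulate salicylic acid (SA), reactive oxygen and dead cells. SA acts through transcriptional regulators to switch on pathogenesis-related (PR) genes, and WRKY factors bind a short element, the W box, in the promoters of many such genes. In growing leaves, by contrast, enzymes that loosen and rebuild the cell wall, microtubule proteins and growth-regulating transcription factors are active. In bulk leaf RNA, fewer cells of a type and less RNA per cell cannot be told apart.

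EE raised 481 genes, which is 2.73% of those tested, and lowered 51, which is 0.290%. The raised genes had a median log2 fold change of 3.97, and 238 of them rose at least 16-fold. The lowered genes changed less: their median was -1.65, none of the 51 fell by 16-fold, and 15 fell at least 4-fold. The 2 sets also started from different levels. In 282 of the 481 raised genes the mean control level was under 1 CPM, whereas none of the 51 lowered genes was that low, and their median control level was 4.54 log2 CPM. All 481 raised and all 51 lowered genes had EE libraries that lay wholly outside the range of the control libraries. Over all genes tested, 9.12% had the 3 EE libraries above all 3 controls and 9.71% had them below.

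In reads, the raised genes took 0.18% to 0.33% of each control library and 2.1% to 3.11% of each EE library. The lowered genes took 0.15% to 0.24% of each control library and 0.07% to 0.10% of each EE library. The median change over all genes was -0.04. No chloroplast or mitochondrial gene was among the 532 changed genes (3.02%). Nearly all genes tested were nuclear, and the chloroplast and mitochondrial genes tested were not counted. Their absence therefore does not set them apart from the share of all genes. At an unadjusted p under 0.05 the number of changed genes was 2355 (13.4%).

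The libraries of a group came from separate experiments. Control and EE libraries numbered 2 deviated together, while those numbered 1 and 3 did so across numbers as much as within them. The fit reported above has no block. With the replicate number as a block in the model, 626 genes (3.56%) were raised and 149 (0.846%) were lowered, and these sets held 471 of the 481 and 47 of the 51. The 4 lowered genes lost were *LSF2* (adjusted p = 0.0584), *TBL2* (0.0543), *AT1G06690* (0.0552) and *FPP6* (0.0587). The number of lowered genes also moved with single libraries. It was 4 without EE replicate 3, 10 without EE replicate 1, 12 without EE replicate 2 and 179 without control replicate 2, and ran from 20 to 31 without any one of the other 5 libraries. The raised genes numbered 200, 299 and 221 when EE library 1, 2 or 3, respectively, was left out. Without all 3 libraries numbered 2, 325 genes were raised and 25 lowered, of which 273 and 4 were among those called with all libraries. With the 6 compared libraries alone, 339 were raised and 16 lowered. Of the 51, 50 could be fitted in all 18 other settings tried and had a negative fold change in each. *REM21* was dropped by the filter at a mean of 0 log2 CPM and was negative in the other 17. These signs are not a test of the falls. In all 51 each EE library lay below each control, so leaving out libraries could not turn a sign, and the replicate block kept the same estimates. The plot of counts by setting shows both numbers.

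**Figure D1:**
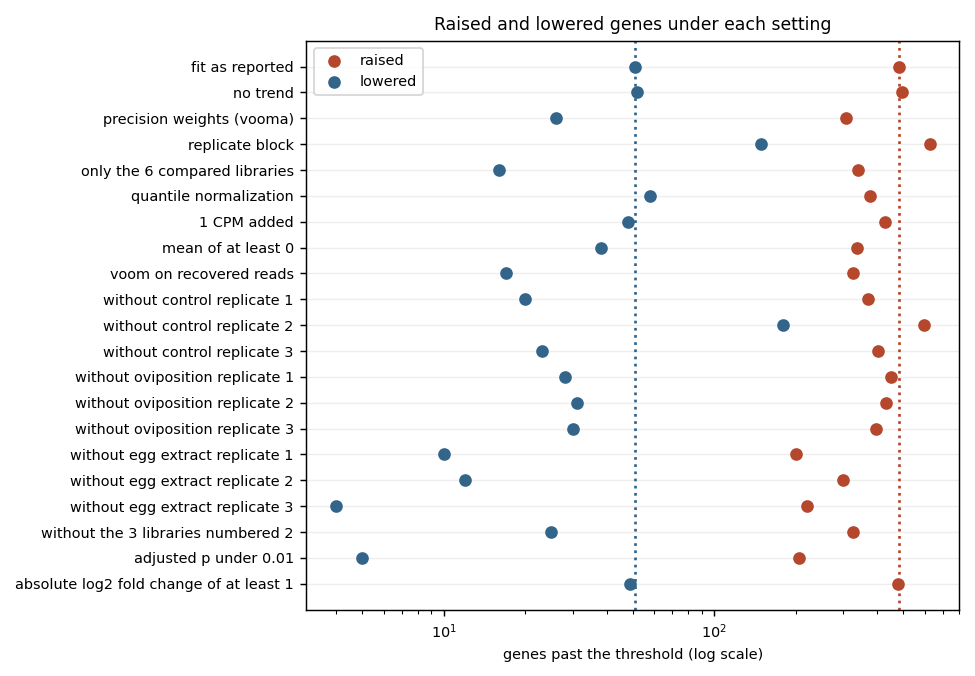
Number of raised (red) and lowered (blue) genes under each setting of the analysis, on a log axis, with dotted lines at the fit as reported (481 and 51). The lowered count ranges from 4 to 179 and the raised count from 200 to 626.

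Among the lowered genes, 10 of 51 act on cell wall polysaccharides, 6 on methyl transfer and the methyl cycle, 6 on the cytoskeleton or plastid division, and 5 on lipids, wax and isoprenoids. These roles were assigned by hand from the gene descriptions after the 51 genes were known, so they describe the set and are not a test of it. A further 5 are oxidases or redox and detoxification enzymes, 4 are transcription factors or peptide signals and 3 are kinases or phosphatases. The remaining 12 have another function or none known. The plot of the lowered genes by library shows all 51 with their 3 control and 3 EE values.

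**Figure D2:**
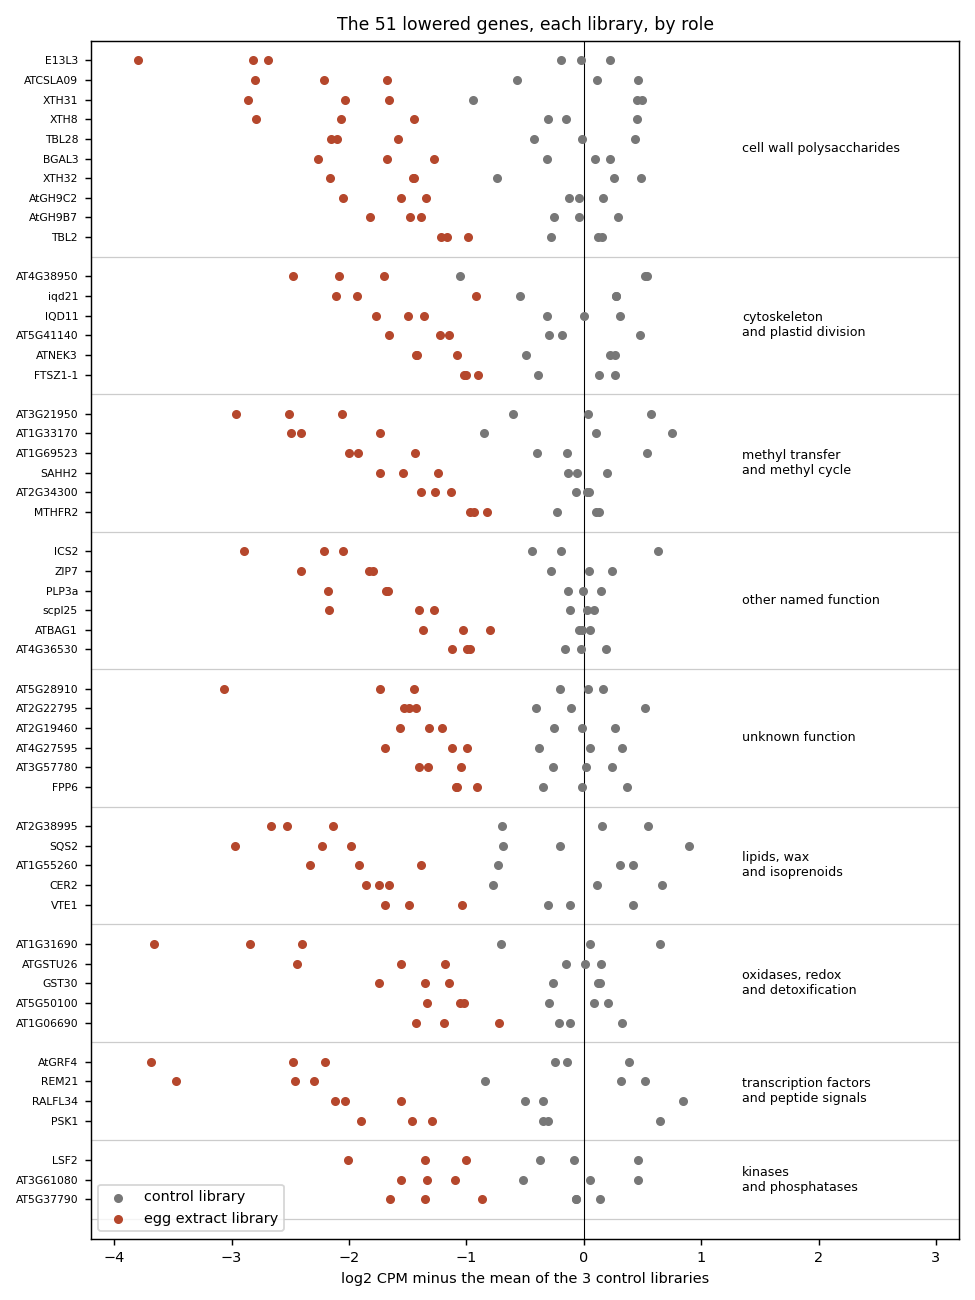
The 51 lowered genes, grouped by role. Each row shows the 3 control libraries (grey) and the 3 EE libraries (red) as log2 CPM minus the mean of the controls, so that 0 is the control mean. In every row the EE points lie to the left of the control points.

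The largest fall was that of *E13L3* (chr5:2563554-2565491), described as a protein like a glucan endo-1,3-beta-glucosidase, with 1.49, 1.90 and 1.65 log2 CPM in the control libraries and -2.11, -1.13 and -1.01 in the EE libraries (log2 fold change -3.10, SE 0.55, adjusted p = 0.0189, a fall of 8.58-fold). The EE libraries were all under 1 CPM and the controls all above it. The second was *AT1G31690* (chr1:11343980-11347767), a copper amine oxidase, an enzyme class that oxidises polyamines. Its controls read 4.75, 3.99 and 5.35 and its EE libraries 2.29, 1.03 and 1.85 (log2 fold change -2.97, SE 0.44, adjusted p = 0.00834). Its gap between the groups was wider than the spread within either. It was one of 3 lowered genes, with *ICS2* and *AtGH9B7*, that stayed lowered whichever of the 9 libraries was left out. The highest adjusted p of these fits was 0.0416 for *AT1G31690*, 0.0494 for *ICS2* and 0.0363 for *AtGH9B7*.

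The third was *AtGRF4* (chr3:19616021-19618449), a growth-regulating factor of the family that promotes leaf cell proliferation and is kept in check by a microRNA. It measured 2.30, 2.82 and 2.19 log2 CPM in the controls and 0.23, -0.04 and -1.25 after EE (log2 fold change -2.79, SE 0.48, adjusted p = 0.0157). Of the 7 measured growth-regulating factors and their coactivators on the list, it was the only one called, and the others ranged from -0.65 (*GRF2*) to 0.20 (*GIF3*). *REM21*, a factor of the B3 family, was at 1.59, 0.42 and 1.79 in the controls and -1.03, -1.20 and -2.21 after EE (log2 fold change -2.74, SE 0.55, adjusted p = 0.0334). Among peptide signals, *RALFL34*, a rapid alkalinisation factor-like peptide, fell (log2 fold change -1.90, SE 0.37, adjusted p = 0.0264), and so did *PSK1*, which encodes a precursor of phytosulfokine, a sulfated growth peptide (log2 fold change -1.55, SE 0.34, adjusted p = 0.0464). Family members did not move together. The phytosulfokine precursor *ATPSK4* rose (2.06, adjusted p = 0.0204), and the other 7 RALF-like genes measured ranged from -1.45 (*RALFL24*) to 0.94 (*AT4G14020*) without a call.

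In cell wall polysaccharides, the 10 lowered genes cover synthesis, trimming and acetylation. *ATCSLA09*, a glycosyltransferase that makes the mannan backbone, measured 6.50, 6.15 and 5.47 log2 CPM in the controls and 3.83, 4.36 and 3.24 after EE (log2 fold change -2.23, SE 0.43, adjusted p = 0.026). *AtGH9B7*, an endoglucanase of glycosyl hydrolase family 9, a family that cuts beta-1,4-glucans, read 7.02, 6.48 and 6.68 and 5.34, 4.90 and 5.25 (log2 fold change -1.56, SE 0.22, adjusted p = 0.00662). Its fall in CPM, from a mean of 107 to 36.2, was among the 8 largest of the called genes. *BGAL3*, a beta-galactosidase that trims wall polymers, read 6.51, 6.38 and 5.97 and 4.61, 5.01 and 4.02 (log2 fold change -1.74, SE 0.34, adjusted p = 0.03). The acetylation-related genes *TBL28* (-1.95) and *TBL2* (-1.12) fell too, and so did the second endoglucanase *AtGH9C2* (-1.65, adjusted p = 0.0236).

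The xyloglucan endotransglucosylases (XTH), which cut and rejoin xyloglucan chains between cellulose fibres, changed in both directions. *XTH31* was at 5.86, 5.90 and 4.47 log2 CPM in the controls and 3.38, 3.75 and 2.55 after EE (log2 fold change -2.18, SE 0.44, adjusted p = 0.0347), a fall in which every EE library was below every control. *XTH8* (adjusted p = 0.0358) and *XTH32* (-1.69, adjusted p = 0.042) fell as well, while *XTH23* rose (4.64, adjusted p = 0.00454). Of the 9 fits that leave out 1 library, 0 called *XTH8* and 1 called *XTH32*. Of the 20 XTH genes measured, 12 had a negative and 8 a positive estimate, and their median of -0.45 moved to -0.01 without control replicate 3, -0.12 without EE replicate 2 and -1.49 without control replicate 2. All 6 GH9 endoglucanases had negative estimates, with a median of -1.61, although 4 of them did not pass the test. The 16 expansins, wall-loosening proteins, and the 13 fasciclin-like arabinogalactan proteins had medians of -0.72 and -1.10 and no call in either direction, beside a median of -0.04 over all genes. The expansin median moved to -0.35 without control replicate 1, -0.41 without control replicate 3 and -0.39 without EE replicate 2, and the fasciclin-like median to -0.70 without control replicate 2. The replicate block gave 5 lowered and 3 raised XTH genes, 3 lowered fasciclin-like genes and 1 lowered expansin. These families were picked after it was seen which genes fell. A list of 8 cell expansion genes, which shares members with them, went the other way. Its median was 0.48, with 5 positive and 3 negative estimates and no call. That median ran from 0.02 to 0.80 when 1 library was left out.

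**Figure D3:**
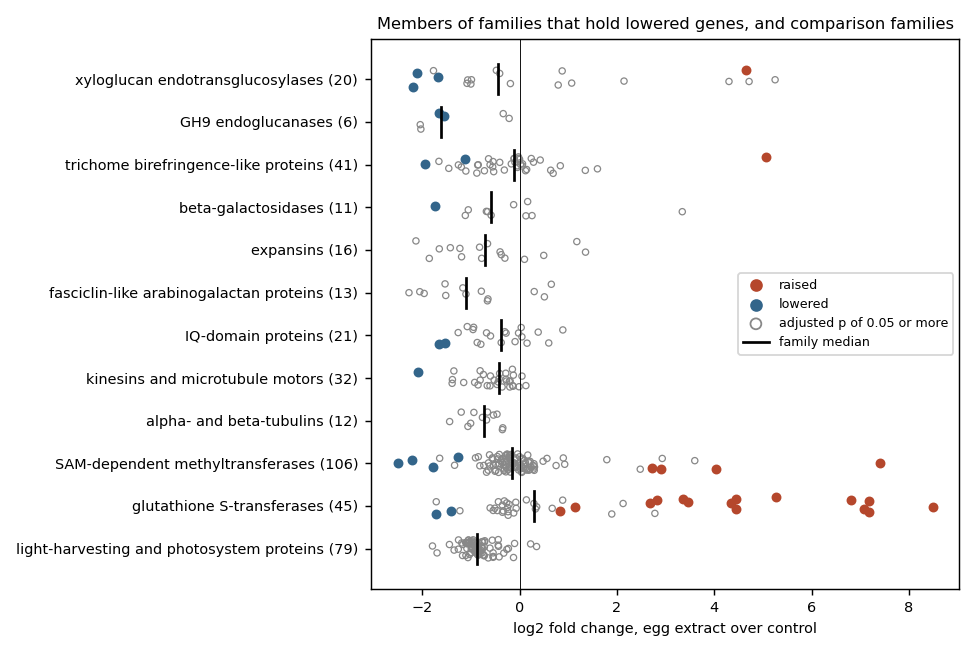
Log2 fold change of every measured member of 12 families, with the number of members in parentheses. Blue points are lowered, red points raised, open points have an adjusted p of 0.05 or more, and black bars are family medians. Lowered members sit beside raised ones in the XTH, methyltransferase and glutathione S-transferase families, and the light-harvesting proteins lie almost wholly below 0 with no call.

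Falls among cytoskeleton genes were mostly under 4-fold. *AT4G38950*, a microtubule motor, measured 4.98, 3.39 and 4.96 log2 CPM in the controls and 2.74, 2.36 and 1.96 after EE (log2 fold change -2.09, SE 0.43, adjusted p = 0.0358). The calmodulin-binding, microtubule-associated IQ-domain genes *iqd21* (-1.65) and *IQD11* (-1.54, adjusted p = 0.00964) fell, 2 of 21 measured (4 with the block, and 0 to 4 when 1 library was left out). *FTSZ1-1*, which builds the ring that divides chloroplasts, fell by less than 2-fold (log2 fold change -0.98, adjusted p = 0.0468). None of the 12 alpha- and beta-tubulins was called, although all had negative estimates with a median of -0.72, and of 32 kinesins and related motors 30 were negative (median -0.43) and 1 was lowered. The tubulin median moved to -0.37 without control replicate 3, and that of the motors to -0.11 and -0.73 without control replicates 1 and 2 and to -0.27 and -0.74 without EE replicates 2 and 3. With the block, 1 tubulin and 3 of the motors were lowered. The cell division list (7 measured genes, including *KNOLLE*, *HINKEL* and *CYCD3;1*) held no called gene, with a median of -0.86 and estimates down to -1.83. Its median moved to -1.79 and -0.39 without control replicates 2 and 3 and to -0.42 and -1.42 without EE replicates 2 and 3.

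Lowered genes of methyl transfer included enzymes that recycle the methyl donor. *SAHH2*, an S-adenosylhomocysteine hydrolase that clears the product of methylation reactions, read 6.94, 7.28 and 7.02 log2 CPM in the controls and 5.35, 5.84 and 5.54 after EE (log2 fold change -1.51, SE 0.31, adjusted p = 0.0367). Its fall in mean CPM, from 136 to 48.2, was the largest of any lowered gene. *MTHFR2*, a methylenetetrahydrofolate reductase that feeds methyl groups into methionine, fell by less than 2-fold (log2 fold change -0.91, SE 0.19, adjusted p = 0.0424). Of 106 genes described as methyltransferases that use S-adenosylmethionine, 4 fell and 4 rose, beside 0.290% and 2.73% of all genes. The number that fell was 1 without control replicate 1 or any one EE library and 2 without control replicate 3. *AT3G21950*, the largest fall of these, measured 4.67, 3.48 and 4.13 in the controls and 2.03, 1.58 and 1.13 after EE (log2 fold change -2.51, SE 0.42, adjusted p = 0.0145). On the rising side, *AT1G15125* went from 5.09, 5.84 and 5.21 to 9.82, 8.75 and 9.69 (log2 fold change 4.04, SE 0.45, adjusted p = 0.002), so members of the family moved in both directions.

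Among lipid genes, *SQS2*, described as a squalene synthase, was at 4.33, 3.85 and 5.44 log2 CPM in the controls and 2.31, 1.56 and 2.55 after EE (log2 fold change -2.40, SE 0.48, adjusted p = 0.0337). *SQE6*, named as a squalene epoxidase, rose (2.30, adjusted p = 0.0191). The activity of either enzyme was not tested. *CER2*, which lengthens the fatty acids of cuticular wax, measured 3.86, 4.74 and 5.29 and 2.78, 2.97 and 2.88 (log2 fold change -1.75, SE 0.35, adjusted p = 0.0339) and was the only called gene among 7 wax genes, all of which had negative estimates (median -0.84, which moved to -0.54 without control replicate 3 and to -0.52 and -1.40 without EE replicates 2 and 3). Wax is made by the epidermis, whose marker sum was also lower after EE, and the part of that in these estimates was not tested. *AT2G38995*, an acyltransferase like the wax ester synthase *WSD1* (-2.44), a lipid transfer protein gene, *AT1G55260* (-1.88), and *VTE1*, the tocopherol cyclase of vitamin E synthesis (log2 fold change -1.41, SE 0.27, adjusted p = 0.0245), completed the group.

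*ICS2*, an isochorismate synthase, was lowered, and its paralogue *ICS1* makes the isochorismate from which most induced SA derives. *ICS2* measured 4.98, 5.24 and 6.06 log2 CPM in the controls and 3.21, 3.38 and 2.53 after EE (log2 fold change -2.39, SE 0.37, adjusted p = 0.00992). *ICS1* had an estimate of 0.69 and was not called. Other falls in this size range were *ZIP7*, a zinc transporter (-2.01), *scpl25*, a serine carboxypeptidase (-1.62), and *ATBAG1*, a chaperone regulator (-1.07). Of 45 glutathione S-transferases (GST), enzymes that conjugate toxic compounds to glutathione, 15 rose and 2 fell, beside 2.73% and 0.290% of all genes. The 2 that fell were *ATGSTU26* (log2 fold change -1.73, SE 0.37, adjusted p = 0.043) and *GST30* (log2 fold change -1.41, SE 0.23, adjusted p = 0.0125), and the largest rise was *ATGSTU3* (8.49).

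Near the threshold, the 5 lowered genes just inside had adjusted p from 0.0464 (*PSK1*) to 0.0494 (*AT1G69523*), and the 5 just outside had 0.0522 (*AT5G43950*) to 0.0554 (*GLYR2*, a glyoxylate reductase). Those just outside also had non-overlapping libraries.

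Photosynthesis genes are the main gene class of a green leaf. All 14 on the photosynthesis list had negative estimates and none was called, with a median of -0.81 that moved to -0.53, -1.58 and -0.07 without control replicates 1, 2 and 3 and to -1.24 and -0.21 without EE replicates 1 and 2. Of 79 light-harvesting and photosystem genes, 77 were negative, with a median of -0.88 that moved to -0.33 without control replicate 3, the library with the high mesophyll marker sum, to -0.45 without EE replicate 2 and to -1.29 without control replicate 2. The part of control replicate 3 in these negative estimates was not tested further. Nor was any of the 10 clock genes, 11 aliphatic glucosinolate genes or 9 flavonoid genes called, beside 3.02% of all genes. These lists are too short for that to set them apart. With the replicate block 1 flavonoid gene was lowered, the flavonol synthase *FLS1* (adjusted p = 0.0115), whose controls read 1.70, 6.44 and 0.80 log2 CPM and EE libraries -0.02, 4.46 and -2.21. The groups of *FLS1* overlapped, and the library numbered 2 was the highest in each. None of the 531 ribosome and translation genes was raised or lowered, beside 2.73% and 0.290% of all genes. Without control replicate 2, 4 of them were lowered.

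The rising genes were grouped from their descriptions. In *PR1*, the classical SA marker, the controls read 1.56, 1.65 and -0.70 log2 CPM and the EE libraries 10.00, 9.39 and 9.51 (log2 fold change 8.80, SE 0.70, adjusted p = 0.000484). *ATKTI1* (*TI*), a Kunitz trypsin inhibitor, went from -4.17, -0.28 and -2.24 to 8.82, 7.45 and 8.98 (log2 fold change 10.65, SE 1.01, adjusted p = 0.00104). *SAG13*, a senescence-associated gene, went from 0.56, 2.11 and -1.84 to 7.70, 7.56 and 7.53 (log2 fold change 7.32, SE 0.87, adjusted p = 0.00261). In all 3 the lowest EE library was above the highest control by more than 5 log2 units. The largest rises were *ATOSM34* (osmotin 34, 12.14), *ALPHA-DOX1* (a fatty acid dioxygenase, 12.09) and *PDF1.2b* (a plant defensin, 11.48), shown by library in the plot of the 15 largest rises. *PDF1.2b* in the EE libraries read 7.55, 5.99 and 9.45, a spread of over 3 log2 units, wider than that of *PR1*.

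**Figure D4:**
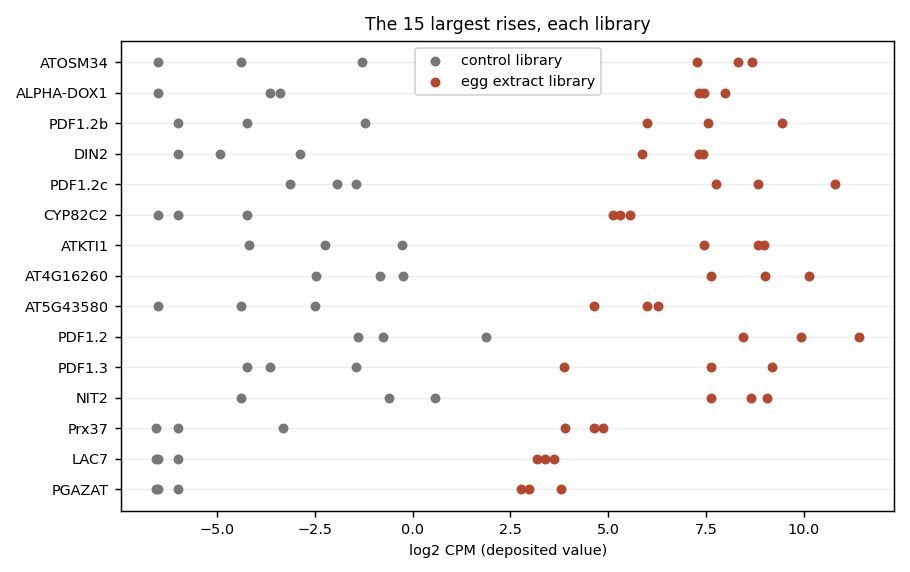
The 15 largest rises among the called genes, each library as log2 CPM (control in grey, EE in red). The control points of several genes lie at or near the level of 0 reads, and the EE libraries are all at 2.77 log2 CPM or more.

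Of the raised genes, 10 had no read in any control library. A lower bound on the fold, taking 3 reads over the 3 controls as the floor, was at least 439-fold for *LAC7* (a laccase, 1474 EE reads) and at least 382-fold for *PGAZAT* (a polygalacturonase, 1281 reads). *CYP82C2*, a P450, had 2 control reads against 5622 after EE, a ratio of 2513 with a 95% counting interval of 695 to 20757. *WRKY75* had 3 control reads against 2881, a ratio of 859 with an interval of 293 to 4166. Counting intervals cover counting error only.

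Rises were spread unevenly over the description groups, and 2.73% of all genes rose. Of 17 berberine bridge enzymes, which oxidise plant metabolites, 7 rose. Of 34 genes grouped as peroxidases by their descriptions 13 rose, among them the dioxygenase *ALPHA-DOX1*. *ATPERX34* added the second-largest gain in mean CPM of any gene, 1.33e+03, although its log2 change was only 2.46. Of 13 defensins and thionins 5 rose, and of 26 PR proteins, chitinases and thaumatins 9. Of 54 WRKY factors 12 rose, led by *WRKY75*, *WRKY31* (7.85) and *WRKY61* (7.43), as did 5 of 23 protease inhibitors. No member of these 6 groups was lowered, beside 0.290% of all genes, and the groups are too small for that to set them apart. Leaving out EE library 1, 2 or 3 gave 5, 6 and 6 raised WRKY factors, respectively, and leaving out EE library 1 or 3 gave 6 and 8 raised peroxidases. The group with the most lowered members relative to its size was methyltransferases and the methyl cycle (10 raised, 6 lowered of 216), followed by cell wall polysaccharides and wall proteins (23 raised, 8 lowered of 358). The lowered wall genes of this group numbered 19 with the replicate block, and when 1 library was left out they ranged from 1 to 11 and those of methyl transfer from 1 to 5. The patterns that assign genes to groups were revised after a first version misplaced genes.

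**Figure D5:**
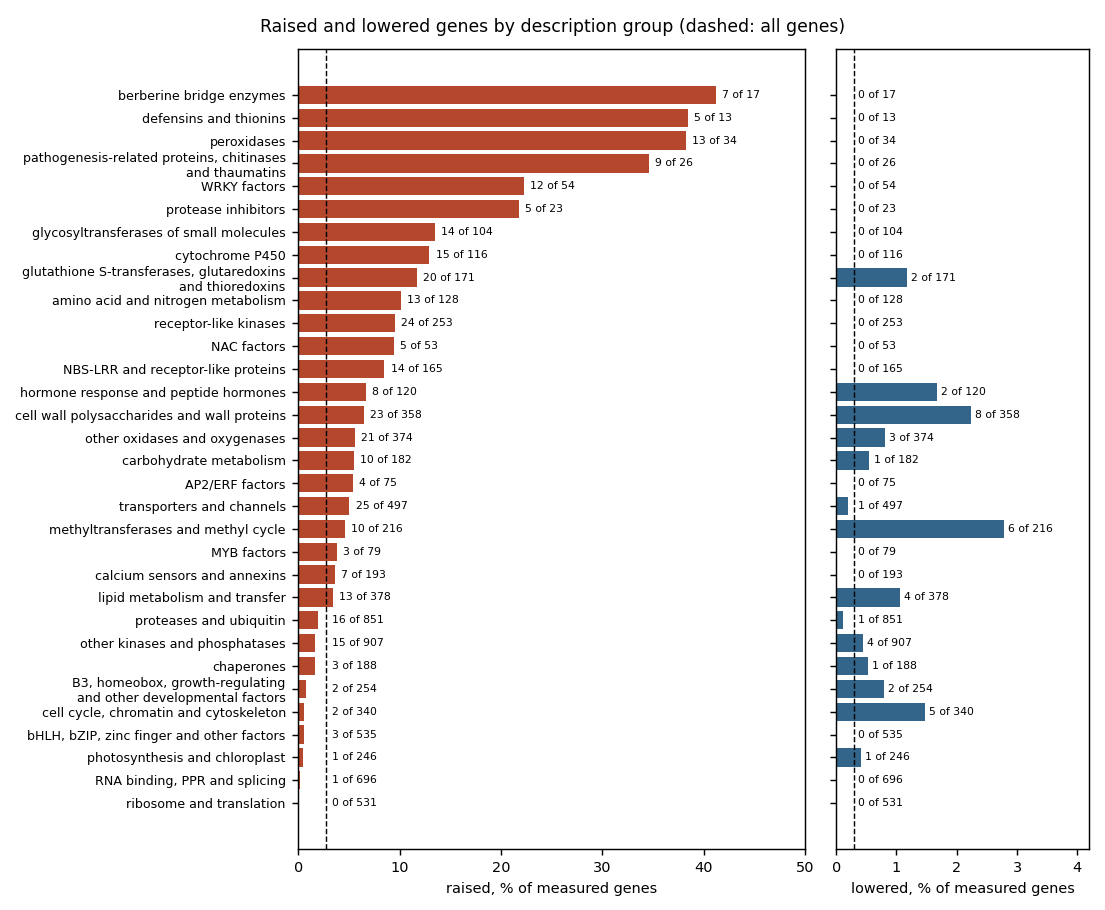
Percentage of the measured genes of each description group that were raised (left) or lowered (right), with counts beside the bars. The dashed lines mark all genes, 2.73% raised and 0.290% lowered. The highest raised share is that of the berberine bridge enzymes, 7 of 17. The highest lowered shares are those of methyl transfer (2.78%), wall (2.23%), hormone and peptide (1.67%) and cytoskeleton (1.47%) genes, and several other groups hold lowered genes too.

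By pathway list, 7 of 23 SA genes rose and none fell, beside 2.73% and 0.290% of all genes, and 9 rose with the replicate block. They include *FMO1*, which makes the immune signal N-hydroxypipecolic acid (4.70), *S3H*, which hydroxylates SA (4.37), and *CBP60g*, a regulator of SA synthesis (1.86). The list was not uniform: 16 estimates were positive and 7 negative, down to -2.15 (*NIMIN1*, not called). The number of SA genes raised ran from 5 to 8 when 1 library was left out. Of 13 jasmonate genes 2 rose, the defensin *PDF1.2* (10.02) and the ethylene-responsive factor *ORA59* (4.54), and the synthesis enzymes had estimates from -0.75 to -0.19 with no call. *VSP2*, a wound-response gene, had an estimate of -2.35 and did not pass the test. Of 11 indole glucosinolate and camalexin genes 4 rose: *CYP71A12* (7.14), *CYP71A13* (6.28), *CYP79B2* (2.78) and *PAD3* (6.73), which makes camalexin, an antimicrobial indole. The genes of this list without a call ran from -0.91 (*MYB34*) to 2.81 (*CYP81F2*), and 6 rose with the replicate block. Of 13 senescence genes 3 rose, and all 13 had positive estimates (median 1.81, or 1.16 without EE replicate 1).

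Wall genes also rose. *ATEXT3*, an extensin that cross-links the wall, read 3.28, 2.97 and 2.24 log2 CPM in the controls and 9.78, 9.27 and 9.76 after EE (log2 fold change 6.78, SE 0.34, adjusted p = 5.96e-05), a gain in mean CPM of 781. *ATEXT4*, a second extensin, rose as well (6.81, adjusted p = 0.00222), as did *PME17*, a pectin methylesterase (7.78, adjusted p = 0.00103), beside *LAC7*, *PGAZAT* and *XTH23* named above.

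The 250 bases upstream of the annotated start of each gene were searched on both strands for short motifs. The files use TAIR10 coordinates, and the sequence was read from RefSeq TAIR10.1, whose genes of the same locus tag overlapped for all 17512 nuclear matches. The W box core TTGAC was found upstream of 67.2% of the 481 raised genes, 43.1% of the 51 lowered genes and 45.2% of 17523 genes. The site II element TGGGCC, common upstream of ribosomal and proliferation genes, was found in 3.74%, 13.7% and 19.3%. The TGA element TGACG was found in 26%, 15.7% and 22.2%, and the GCC box GCCGCC in 4.37%, 1.96% and 2.45%. The W box core and the TGA element can overlap in TTGACG. These shares are descriptions, and a match is not a binding site.

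The upstream sequences of *TI* and *WRKY75* (raised) and of the 3 largest falls are given to set the motif count beside individual promoters. Capitals mark the W box core on either strand, and each run reads 5′ to 3′ on the strand of its gene, at chr1:27548191-27548440, minus strand for *TI*, chr5:4151151-4151400, minus strand for *WRKY75*, chr5:2563304-2563553, plus strand for *E13L3*, chr1:11343730-11343979, plus strand for *AT1G31690* and chr3:19618450-19618699, minus strand for *AtGRF4*.
ATKTI1: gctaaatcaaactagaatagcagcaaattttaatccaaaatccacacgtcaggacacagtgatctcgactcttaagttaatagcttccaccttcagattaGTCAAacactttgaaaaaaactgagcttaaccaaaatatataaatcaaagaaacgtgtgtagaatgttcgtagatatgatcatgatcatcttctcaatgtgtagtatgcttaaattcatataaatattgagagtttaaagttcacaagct
WRKY75: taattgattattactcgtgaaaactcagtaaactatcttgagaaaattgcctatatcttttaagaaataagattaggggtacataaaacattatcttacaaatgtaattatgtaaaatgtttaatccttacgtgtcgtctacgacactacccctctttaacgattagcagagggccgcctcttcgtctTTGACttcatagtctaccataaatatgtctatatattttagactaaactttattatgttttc
E13L3: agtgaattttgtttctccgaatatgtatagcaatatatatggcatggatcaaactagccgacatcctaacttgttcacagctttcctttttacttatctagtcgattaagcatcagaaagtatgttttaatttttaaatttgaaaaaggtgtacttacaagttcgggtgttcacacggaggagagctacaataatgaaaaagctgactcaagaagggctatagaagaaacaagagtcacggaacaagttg
AT1G31690: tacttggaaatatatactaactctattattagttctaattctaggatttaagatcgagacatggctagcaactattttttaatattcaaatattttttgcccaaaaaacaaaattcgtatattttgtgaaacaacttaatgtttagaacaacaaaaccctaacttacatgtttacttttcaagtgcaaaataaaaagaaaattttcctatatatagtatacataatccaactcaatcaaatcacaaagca
AtGRF4: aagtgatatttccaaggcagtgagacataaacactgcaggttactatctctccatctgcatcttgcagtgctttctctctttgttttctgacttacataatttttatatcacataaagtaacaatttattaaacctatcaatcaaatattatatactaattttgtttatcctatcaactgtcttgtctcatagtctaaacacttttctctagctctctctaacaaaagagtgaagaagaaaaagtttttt
Each of the 2 raised promoters holds 1 core and the 3 lowered ones hold none. *TI* and *WRKY75* are not the largest rises, so these promoters are examples and not a comparison. The core lay upstream of 323 of the 481 raised genes. It lay upstream of 22 of the 51 lowered genes (43.1%), near the 45.2% of all genes.

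Leaves with natural eggs shared the control libraries, so the EE and oviposition changes are given side by side only. For the 481 raised genes the median change was 3.97 after EE and 3.16 after oviposition, and for the 51 lowered genes -1.65 and -0.86. The genes were picked by their EE change, which by itself tends to make the EE medians larger. These medians therefore do not compare the strength of the treatments. The direct test of EE against oviposition passed for 2 of the 532 genes, beside 0.0170% of all genes: *AACT1*, an acyltransferase (log2 difference 5.80, adjusted p = 0.0104), and *YDK1* (*GH3.2*), which conjugates auxin to amino acids (3.06, adjusted p = 0.0438). With the replicate block only *AACT1* passed. None of the 51 lowered genes passed the direct test, where the lowest adjusted p was 0.0851.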

How the data were processed

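RNA came from leaves of *Arabidopsis* plants and was sequenced as stranded mRNA libraries in 2 rounds. Per the labels and the study's methods, the authors trimmed reads (cutadapt 1.5), mapped them to TAIR10 with STAR, counted them per gene (HTSeq), scaled the counts by the trimmed mean of M-values and by library size (edgeR 3.4.0 is listed) and deposited log2 CPM values. All libraries share a median of 4.19 log2 CPM, so a further scaling between libraries was applied, and neither it nor the filter on low genes is given in the sources used here. From each deposited log2 value the number of reads could be recovered: all values fell within 0.01 of a whole read, after adding 0.5 reads before the logarithm. These reads served for the share of reads, the fold bounds and 1 alternative.

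The comparison used limma 3.58.1 in R 4.3.3 with a mean-variance trend, 1 mean per group and all 9 libraries. The residual degrees of freedom were 6, and p-values were adjusted over 17605 genes. The fit was tested on simulated data. The columns of the authors' own comparisons, which hold fold changes and p-values, were not used, and 0 sample columns were left out. Same-numbered control and EE libraries correlated in their deviations at 0.34, 0.78 and 0.32, all above the limit of 0.1 set for pairing. The reported fit nevertheless has no block, and the replicate block is given as an alternative. Libraries numbered 1 and 3 correlated across numbers no less than within them (0.35 and 0.43), so the limit does not establish a pairing of these. The sources do not say that a number marks a shared experiment.

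Genes eligible for naming were the 25 largest falls and 15 largest rises among called genes with non-overlapping libraries. The 12 largest gains and 8 largest losses of mean CPM and up to 3 called genes per group and direction were added. So were called list members, the member of each list that changed most and the 5 genes on either side of the threshold. *PR1*, *SAG13* and *TI* completed the rule. Not all eligible genes are named in the text, for example the called list members *DIN2* (11.46) and *ALD1* (4.12). Further lowered genes and family members were chosen after their values were seen. Members and lists were chosen with earlier results of these data known. Alternatives were no trend, precision weights, the replicate block, the 6 libraries alone, quantile normalization, 1 CPM added, a filter at a mean of 0 log2 CPM, voom on the recovered reads with the deposited library sizes, stricter thresholds and leaving out each library. Leaving out the 3 libraries numbered 2 was chosen after seeing the data. Not every upstream sequence is reported here.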

Additional observations from a re-analysis of the deposited data

Results flagged for a closer look

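*AACT1* was higher after EE than after oviposition. It measured -0.52, -1.45 and -0.79 log2 CPM in the controls, 6.31, 5.89 and 7.60 after EE and 1.02, 0.89 and 0.49 after oviposition, a difference of 5.802 between the treatments (limma, adjusted p = 0.0104). The lowest EE value exceeded the highest oviposition value.

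*YDK1* (*GH3.2*) showed a smaller difference of the same direction, 3.064 (adjusted p = 0.0438), with -1.0, -1.72 and -1.40 in the controls, 5.02, 4.70 and 4.51 after EE and 1.31, 2.05 and 1.68 after oviposition.

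*GST30* lay below the controls in all 3 EE libraries and above them in all 3 oviposition libraries (4.12, 3.74 and 4.15 in the controls, 2.86, 2.26 and 2.65 after EE, 4.45, 4.41 and 4.30 after oviposition). The difference of -1.795 did not pass the adjusted test (adjusted p = 0.0851).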

How the results depend on the processing

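Called genes kept their direction in each of the 18 other fits that held them, while the counts moved. The EE and control libraries of called genes did not overlap, so leaving out libraries could not turn a direction, and the kept direction is not a test. The filter at a mean of 0 log2 CPM dropped 112 of the 481 raised genes and 1 of the 51 lowered ones. The raised, lowered and changed counts, in that order, were 481, 51 and 532 as reported. They were 308, 26 and 334 with precision weights, 626, 149 and 775 with the replicate block, 339, 16 and 355 with the 6 compared libraries alone, 326, 17 and 343 with voom on recovered reads, 206, 5 and 211 at an adjusted p under 0.01, and 325, 25 and 350 without the 3 libraries numbered 2, which was chosen after seeing the data (4 of the 51 lowered genes remained). Leaving out 1 library gave 200 to 595 raised, 4 to 179 lowered and 210 to 774 changed genes. Among the 532 changed genes, 1 in place of 2 differed between EE and oviposition with the block. Among single genes, the estimate of *LHCB2.1* ran from -2.653 to 0.347 (above 0 without EE replicate 2) and that of *CCA1* from -1.105 to 0.130 (above 0 without control replicate 1) when 1 library was left out, and neither was called. The cause of these shifts was not tested. Of the 51 lowered genes, 3 were called in all 9 fits that leave out 1 library and 4 in none (*XTH8*, *ATGSTU26*, *AT1G06690* and *AT5G37790*). At 1 CPM a library holds 29.4 to 51.4 reads, which limits the precision of lower levels.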
